A study of Mus musculus with 48 samples.

Results

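The growth hormone signalling axis was described here through 10 genes, all found by symbol among the 23732 genes of the count table: the receptor Ghr, the transcription factors Stat5a and Stat5b, the endocrine products Igf1 and Igfals, the feedback inhibitors Socs2 and Cish, and the regulators Bcl6, Cux2 and Trim24. All 10 passed the filter on low counts, which left 14836 genes for testing. The 48 livers came from C57BL/6 males, 4 to 6 months old. The 24 KO mice carried floxed Bmal1 alleles (Arntl in the table) and EsrCre, a Cre recombinase expressed in every tissue and switched on by tamoxifen. The 24 WT mice were Cre-negative floxed littermates. All mice, WT included, had tamoxifen by gavage (5 mg daily, 5 days), waited 7 days, lived in constant darkness for 36 h and were then killed without light. Livers of 4 mice per genotype were taken every 4 h at 6 times, ZT0 to ZT20 (zeitgeber hours, as labelled). An effect of Cre cannot be told apart from the loss of Bmal1, since every KO mouse and no WT mouse carried it. Because Cre acted in every tissue, effects in the liver and in other organs cannot be told apart.

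Growth hormone from the pituitary binds its receptor on hepatocytes and activates the kinase JAK2, which phosphorylates STAT5a and STAT5b. Phosphorylated STAT5 enters the nucleus and activates genes for IGF1, its carrier subunit and the feedback inhibitors of the SOCS family. Male rodents secrete the hormone in separated pulses and females more continuously, and STAT5b carries much of this sex difference into liver gene expression. Transcript levels do not report phosphorylation of STAT5, the form that is active.

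Each library held 33562272 to 34035644 counts (median 33855278), and libraries correlated with their group mates at a mean of 0.974 to 0.990. The libraries farthest from their groups were those of KO mice 21 and 20 at ZT12 and KO mice 44 and 43 at ZT0. Arntl, the targeted gene, had group means of 10.1 ± 5.05 CPM (ZT20) to 17.9 ± 4.37 CPM (ZT12) in KO livers, against 1.35 ± 0.349 CPM (ZT8) to 43.9 ± 3.67 CPM (ZT20) in WT livers (SD, n = 4 each). Whole-gene counts cannot check a deletion of part of the gene. CPM are counts scaled to a common library size after TMM, which corrects for the composition of each library. They are not corrected for transcript length, so levels are compared between mice and not between genes. The summed hepatocyte markers reached 17929 to 37300 CPM in KO livers and 16728 to 33669 CPM in WT livers, with all 5 measured markers present. In bulk tissue, fewer cells of a type and less RNA per cell cannot be told apart.

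Promoter sequence is shown for Cish and Bcl6, the pair whose levels ran opposite to each other between mice (described further on). STAT5 binds the palindrome TTCNNNGAA, and BMAL1 with its partner binds the palindrome CACGTG, so a single search covers both strands. RefSeq windows of 250 bases before to 50 bases after a start site (build GRCm38.p6) were matched by symbol for 9 of the 10 genes, Socs2 being the exception, and gave 17 windows. TTCNNNGAA stood in 5 of these 17 windows, those of Cish, Bcl6 and Igfals, and in 8.30% of all 32851 windows of the same length. At least 2 matches stood in 0.457% of all windows. CACGTG stood in 1 of the 17 windows and in 7.15% of all windows. The stretches below run 5′ to 3′ from 250 bases before the start site, to the start site for Bcl6 and to 30 bases past it for Cish, with the matches to either motif in capitals. The Cish stretch lies at chr9:107296409-107296688 on the plus strand, the first Bcl6 stretch at chr16:23981284-23981533 and the second at chr16:23988853-23989102, both on the minus strand.
Cish: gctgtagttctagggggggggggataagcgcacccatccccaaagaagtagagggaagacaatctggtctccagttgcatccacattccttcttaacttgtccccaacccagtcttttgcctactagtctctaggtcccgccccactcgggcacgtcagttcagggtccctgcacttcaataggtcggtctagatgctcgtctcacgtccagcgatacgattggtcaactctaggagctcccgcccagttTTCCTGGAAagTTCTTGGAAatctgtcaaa
Bcl6 window 1: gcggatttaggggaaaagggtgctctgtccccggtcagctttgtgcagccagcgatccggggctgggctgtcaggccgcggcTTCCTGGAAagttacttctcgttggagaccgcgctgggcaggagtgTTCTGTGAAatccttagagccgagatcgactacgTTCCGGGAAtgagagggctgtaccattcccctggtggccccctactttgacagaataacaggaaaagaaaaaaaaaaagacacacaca
Bcl6 window 2: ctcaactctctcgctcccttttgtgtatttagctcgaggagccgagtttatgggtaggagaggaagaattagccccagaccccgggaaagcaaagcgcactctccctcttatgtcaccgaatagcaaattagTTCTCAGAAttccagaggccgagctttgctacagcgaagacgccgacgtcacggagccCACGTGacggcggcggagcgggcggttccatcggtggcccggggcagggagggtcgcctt
Cish holds 2 TTCNNNGAA matches side by side, the first Bcl6 stretch holds 3, and the second holds 1 with a separate CACGTG. These matches describe the letters of the windows and show no binding.

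Over the day, Stat5a, Stat5b, Igf1 and Igfals cycled in WT livers, and their 24 h waves differed between genotypes. The fitted KO waves had smaller amplitudes and other peak times, farthest from WT for Igf1 and Igfals. Igf1 peaked at ZT 5.76 in KO and ZT 13.6 in WT livers, and Igfals at ZT 7.19 and ZT 14.6. These KO peak times belong to waves that were not called. A wave with a period of 24 h was fitted to each genotype. Its amplitude, on the log2 scale, is how far the peak lies above the fitted mean. In KO livers 0 of the 10 genes had a called rhythm (adjusted p under 0.05), where 0.984% of all genes were called. DESeq2 also called 0, and at an unadjusted p under 0.05 (edgeR) there were 4, Stat5b, Igf1, Igfals and Socs2. In WT livers 5 of the 10 were called, against 48.1% of all genes. The difference in rhythm between genotypes was tested on amplitude and peak time together, and amplitude alone was not tested. It was called for 4 of the 10, against 22.8% of all genes. The interaction of genotype and time, which assumes no wave, was called for the same 4 genes, against 20.7% of all genes. Among the 22 mice of the 11 cages that held 1 KO and 1 WT mouse of the same time, 0 of the 10 genes passed for the difference in rhythm, with cage mates paired or unpaired (edgeR). At an unadjusted p under 0.05 there were 4 with pairing (Stat5a, Stat5b, Igf1 and Bcl6) and 3 without (Ghr, Stat5b and Igf1). The share of all genes at an unadjusted p was not counted, so these counts and the 4 in KO livers above are not read further. The median amplitude of the 10 genes was 0.19 in KO livers and 0.33 in WT livers, against 0.11 and 0.18 over all genes tested. The rhythms within a genotype were thus called about as often as over all genes and the differences somewhat more often, and with 10 genes nothing further is read from these shares.

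Ghr (ENSMUSG00000055737, mm9 chromosome 15, 3267760 to 3533492) encodes the receptor itself. Its level ran between 501 and 809 CPM in KO mice (median 666, n = 24) and between 547 and 818 CPM in WT mice (median 682, n = 24). The ranges overlapped almost whole. At ZT0, the time of the lowest WT mean, single mice had 686, 809, 501 and 675 CPM in KO livers and 576, 600, 547 and 576 CPM in WT livers. The amplitude was 0.03 ± 0.04 in KO livers (SE, adjusted p = 0.851) and 0.14 ± 0.04 in WT livers (SE, peak at ZT 12.0, adjusted p = 0.0189), so only the WT rhythm was called. The difference in rhythm did not pass (adjusted p = 0.0865), and a difference in Ghr rhythm was therefore not shown with all mice. It passed without KO mouse 44 (adjusted p = 0.0196), KO mouse 20 (0.0482) or WT mouse 36 (0.0407), and without KO mice 20, 21, 43 and 44 together (0.0357). Leaving out other single mice, it did not pass (adjusted p up to 0.158). The WT call ended when libraries were scaled to total counts alone (adjusted p = 0.155), without WT mouse 47 (0.0556) and without WT mouse 22 (0.0524). Averaged over the 6 times, Ghr in KO minus WT livers was -0.03 ± 0.04 on the log2 scale (SE, adjusted p = 0.678).

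Stat5b (ENSMUSG00000020919, mm9 chromosome 11, 100642045 to 100712038), the form that predominates in liver, had the smallest p of the 10 genes for the WT rhythm. Its group means lay between 83.2 CPM (ZT8) and 102.7 CPM (ZT20) in KO livers, a 1.23-fold span, and between 68.2 CPM (ZT12) and 138.8 CPM (ZT0) in WT livers, a 2.04-fold span. The KO means thus stayed inside the WT extremes. The amplitude was 0.15 ± 0.05 in KO livers (SE, fitted peak at ZT 20.6, adjusted p = 0.166) and 0.53 ± 0.05 in WT livers (SE, peak at ZT 23.7, adjusted p = 3.3e-10). The difference in rhythm had an adjusted p of 4.61e-05. At ZT0 the 4 KO livers had 111, 97.1, 91.1 and 91.1 CPM, against 123, 153, 139 and 141 CPM in WT livers. Every KO value was below every WT value, a separation that 6.35% of all genes showed at ZT0. Stat5b was lower in KO by 0.51 at ZT0 (log2 fold change -0.51 ± 0.13 SE, adjusted p = 0.0323). This call ended without KO mouse 43, 44 or 46 or WT mouse 45, 47 or 48 (adjusted p up to 0.107), and without KO mice 20, 21, 43 and 44 together (log2 fold change -0.46, adjusted p = 0.207).

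Stat5a (ENSMUSG00000004043, mm9 chromosome 11, 100720665 to 100746483), its close relative and chromosomal neighbour, ran a similar course. Group means lay between 33.5 CPM (ZT8) and 50.5 CPM (ZT4) in KO livers and between 28.4 CPM (ZT8) and 82.0 CPM (ZT0) in WT livers. Its amplitude was 0.15 ± 0.10 in KO livers (SE, fitted peak at ZT 1.27, adjusted p = 0.554) and 0.64 ± 0.10 in WT livers (SE, peak at ZT 22.6, adjusted p = 4.31e-06). The difference in rhythm had an adjusted p of 0.0131. At ZT0 single mice had 70.7, 37.5, 38.1 and 41.1 CPM in KO livers and 90.5, 81.1, 94.9 and 61.4 CPM in WT livers. KO mouse 41 stood above the lowest WT mouse, so the groups overlapped. Stat5a was lower in KO at ZT0 (log2 fold change -0.81 ± 0.22 SE, adjusted p = 0.0475). That call was marginal. Leaving out single mice ended it in 31 of 48 fits (adjusted p up to 0.153), and without the 4 KO libraries that stood apart the log2 fold change was -0.55 (adjusted p = 0.326). Adding body weight as a term also ended it (0.0795). The interaction for Stat5a (adjusted p = 0.0233) ended without KO mouse 43, 44 or 46 or WT mouse 47 (adjusted p up to 0.0573), whereas its difference in rhythm held in all 48 (adjusted p up to 0.0348). Reads can be shared within this pair. Of 50-base windows in annotated GENCODE M21 transcripts, 15.8% of those of Stat5a and 11.8% of those of Stat5b occur in both, and how such reads were counted is not given in the sources used here. The Stat5a span also overlaps that of Stat3 by 72 bases.

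Igf1 (ENSMUSG00000020053, mm9 chromosome 10, 87321010 to 87399792) encodes the main endocrine mediator of growth hormone. Its wave peaked in WT livers about when the STAT5 genes were low. Group means lay between 805 CPM (ZT20) and 983 CPM (ZT8) in KO livers, and between 678 CPM (ZT0) and 1029.8 CPM (ZT12) in WT livers. Its amplitude was 0.15 ± 0.05 in KO livers (SE, fitted peak at ZT 5.76, adjusted p = 0.14) and 0.31 ± 0.05 in WT livers (SE, peak at ZT 13.6, adjusted p = 7.03e-06). The difference in rhythm had an adjusted p of 9.89e-05. At ZT0 the KO livers had 923, 1155, 798 and 825 CPM, against 739, 737, 637 and 599 CPM in WT livers. At ZT4 the KO livers had 901, 1028, 886 and 947 CPM, against 630.0, 842, 621 and 717 CPM in WT livers. At both times every KO mouse was above every WT mouse. Igf1 rose in KO by 0.45 ± 0.12 at ZT0 (log2, SE, adjusted p = 0.0449) and by 0.42 ± 0.12 at ZT4 (log2, SE, adjusted p = 0.0423). Both calls lay near the threshold. The first ended with scaling to total counts (log2 fold change 0.36, adjusted p = 0.117), without KO mice 20, 21, 43 and 44 (0.37, adjusted p = 0.267) and without any 1 of KO mice 43, 46 and 7 and WT mice 45, 47, 48, 32 and 33 (adjusted p up to 0.202). The second ended without any 1 of KO mice 1, 5, 6 and 7 and WT mice 2, 4 and 8 (adjusted p up to 0.119), and without the filter on low counts (log2 fold change 0.41, adjusted p = 0.0761).

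Igfals (ENSMUSG00000046070, mm9 chromosome 17, 25014600 to 25018955) encodes the acid-labile subunit that holds IGF1 in its long-lived serum complex. Its group means lay between 172 CPM (ZT16) and 225 CPM (ZT4) in KO livers, and between 135 CPM (ZT4) and 218 CPM (ZT12) in WT livers. ZT4 thus held the highest KO mean and the lowest WT mean. The amplitude was 0.17 ± 0.06 in KO livers (SE, fitted peak at ZT 7.19, adjusted p = 0.19) and 0.36 ± 0.06 in WT livers (SE, peak at ZT 14.6, adjusted p = 4.37e-05). The difference in rhythm had an adjusted p of 0.000606. At ZT4 single mice had 244, 247, 221 and 188 CPM in KO livers and 147, 136, 139 and 120.0 CPM in WT livers, without overlap. Igfals rose in KO at ZT4 by 0.73 ± 0.16 (log2, SE, adjusted p = 0.00481), and this call held without each of the 48 mice in turn (adjusted p up to 0.0302). At ZT8 the groups did not overlap either, with 208, 191, 228 and 186 CPM in KO livers and 158, 172, 186 and 184 CPM in WT livers, but the log2 difference of 0.22 ± 0.15 (SE) was not called (adjusted p = 0.46).

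**Figure D1:**
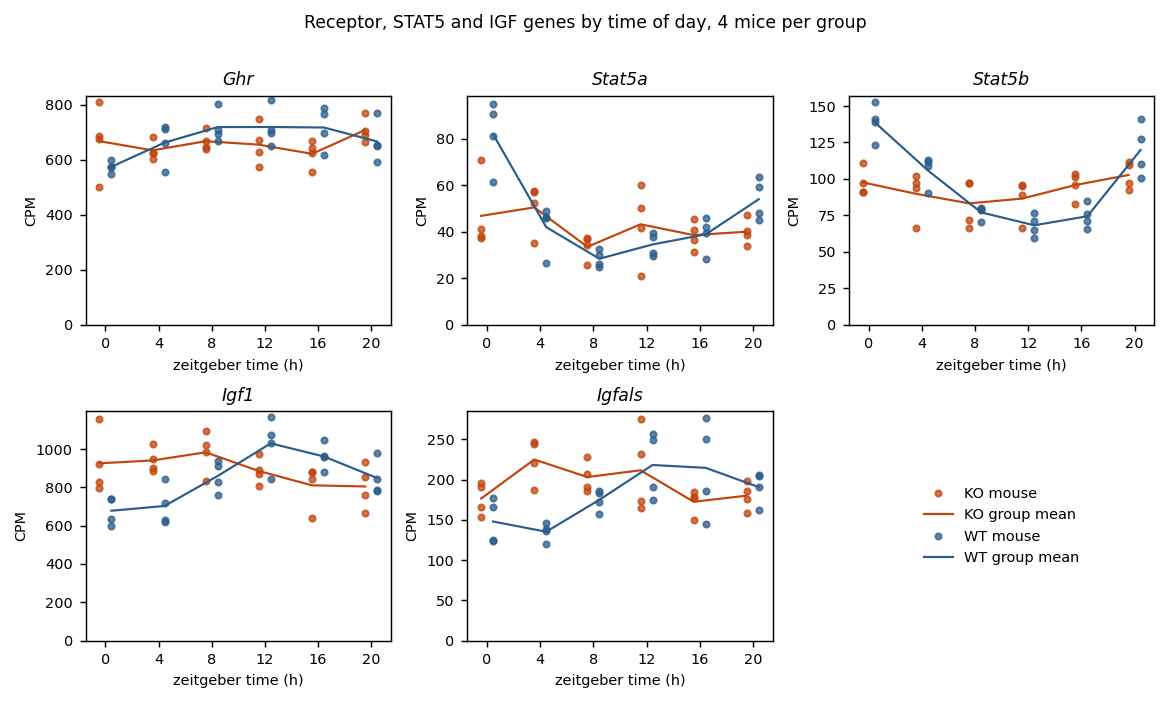
CPM of Ghr, Stat5a, Stat5b, Igf1 and Igfals against zeitgeber time in hours, with 1 point per mouse (KO orange, drawn to the left of WT blue) and lines through the arithmetic group means of 4 mice. WT means of Stat5b run between 68.2 and 138.8 CPM and KO means between 83.2 and 102.7 CPM, while Igf1 and Igfals of KO livers stand above WT at ZT4.

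Taken at single times, the 10 genes gave few calls. They numbered 3 of 10 at ZT0 (Stat5a, Stat5b and Igf1, against 1.68% of all genes), 2 at ZT4 (Igf1 and Igfals, against 3.79%) and 1 at ZT16 (Trim24, against 5.37%). At ZT8, ZT12 and ZT20 the number was 0, against 7.87%, 11.7% and 1.05% of all genes. All 3 calls at ZT0 ended without the filter on low counts (adjusted p of 0.0623 for Stat5a, 0.0512 for Stat5b and 0.0638 for Igf1) and with cage as a random block (0.0587, 0.0503 and 0.0698 in the same order). The numbers of the 10 genes whose KO and WT values did not overlap were 2 at ZT0 (6.35% of all genes), 4 at ZT4 (13.3%) and 2 at ZT8 (15.4%). Later in the day there was 1 such gene at ZT16 (14.5%), with 0 at both ZT12 (10.5%) and ZT20 (9.85%). The time courses of KO livers, tested with no assumed shape, were called for 0 of the 10 genes (0.91% of all genes), and those of WT livers for 5 (47.9%). The 5 in WT were Stat5a, Stat5b, Igf1, Igfals and Trim24 (adjusted p = 0.0485).

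Averaged over the 6 times, KO minus WT was called for 1 of the 10 genes, Trim24, where 8.86% of all genes were called. The average weighs the 6 times equally, so it sets KO against WT mice killed at the same time and from the same cage set. The median of the 10 log2 differences was 0.11, against 0.00 over all genes.

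**Figure D2:**
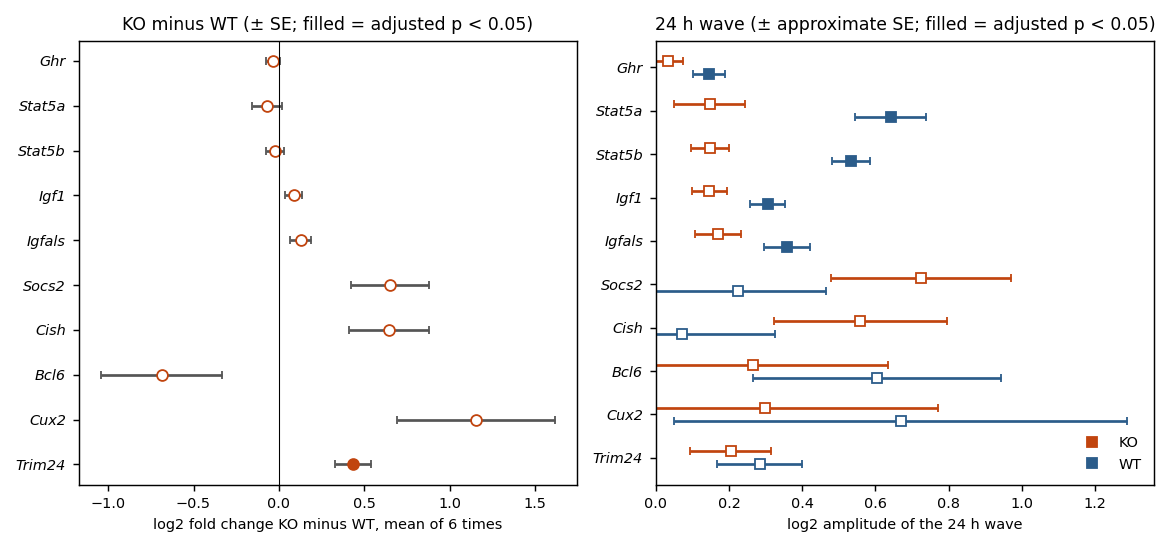
Left, log2 fold change of KO minus WT averaged over the 6 times (± SE) for the 10 genes. Right, log2 amplitude of the 24 h wave (± approximate SE, bars cut at 0) in KO (orange, upper square) and WT (blue, lower square). Filled marks have an adjusted p under 0.05: Trim24 on the left, and on the right Ghr, Stat5a, Stat5b, Igf1 and Igfals in WT, with no filled KO square.

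Socs2 (ENSMUSG00000020027, mm9 chromosome 10, 94847996 to 94879814) encodes a SOCS-box protein that limits growth hormone signalling and is itself induced by STAT5. It ran between 16.8 and 167 CPM in KO mice (median 45.5, n = 24) and between 5.22 and 90.4 CPM in WT mice (median 33.7, n = 24). The averaged log2 difference was 0.65 ± 0.23 (SE, adjusted p = 0.0636) and was not called. Leaving out single mice, it passed in 7 of 48 fits, those without KO mouse 46, 18, 24 or 25 or WT mouse 2, 19 or 27. Over the 48 fits its adjusted p ran from 0.0338 to 0.117. At ZT8 every KO mouse was above every WT mouse, with 147, 121, 67.5 and 167 CPM in KO livers and 29.8, 34.3, 49.4 and 42.1 CPM in WT livers. The log2 difference at ZT8 was 1.69 ± 0.57 (SE, adjusted p = 0.0556). At ZT20 the groups overlapped and KO values were low, at 24.6, 26.9, 19.3 and 16.8 CPM, against 28.3, 21.3, 58.3 and 42.8 CPM in WT livers. The fitted amplitude was 0.72 ± 0.25 in KO livers (SE, adjusted p = 0.158) and 0.22 ± 0.24 in WT livers (SE, adjusted p = 0.714). The difference in rhythm had an adjusted p of 0.533. Among the 10 genes, Socs2 and Cish had the largest fitted KO amplitudes, and neither passed. In the test without a wave, the KO time course of Socs2 passed without KO mice 20, 21, 43 and 44 (adjusted p = 0.0348), without KO mouse 24 (0.0372) and by DESeq2 (0.0245), but not with all mice in edgeR (adjusted p = 0.0758). Leaving out other single mice, it did not pass (adjusted p up to 0.139).

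Cish (ENSMUSG00000032578, mm9 chromosome 9, 107198357 to 107205115) encodes the founding member of the SOCS family, a direct STAT5 target. Its level ran between 7.53 and 68.8 CPM in KO mice (median 27.6, n = 24) and between 4.95 and 55.5 CPM in WT mice (median 15.5, n = 24). The ranges overlapped, and the WT median was the lower one. The averaged log2 difference was 0.64 ± 0.24 (SE, adjusted p = 0.0798), not called. It passed without WT mouse 16 (0.82, adjusted p = 0.0143), without KO mouse 24 (0.70, adjusted p = 0.041) or without WT mouse 40 (0.77, adjusted p = 0.0286). Leaving out other single mice, it did not pass (adjusted p up to 0.124). At ZT4, where the fitted difference was widest (1.60 ± 0.59 SE, adjusted p = 0.117), KO livers had 43.9, 32.5, 38.1 and 12.1 CPM and WT livers 16.9, 8.13, 6.74 and 10.1 CPM. KO mouse 7 alone overlapped WT. Amplitudes were 0.56 ± 0.24 in KO livers (SE, adjusted p = 0.268) and 0.07 ± 0.25 in WT livers (SE, adjusted p = 0.969). The difference in rhythm did not pass (adjusted p = 0.365).

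Bcl6 (ENSMUSG00000022508, mm9 chromosome 16, 23965138 to 23988938) encodes a zinc-finger repressor that is more abundant in male liver, is lowered by STAT5 and can bind sites like those of STAT5. In 24 KO mice it ran between 4.58 and 75.1 CPM (median 11.6), and in 24 WT mice between 5.88 and 90.9 CPM (median 21.3). Values were uneven within groups. At ZT4 the KO livers had 6.37, 7.01, 7.60 and 56.3 CPM and the WT livers 20.4, 44.02, 62.8 and 13.5 CPM. At ZT20 the KO livers had 75.1, 8.99, 8.40 and 13.4 CPM and the WT livers 54.9, 90.9, 33.0 and 7.80 CPM. A single KO mouse stood far above its 3 group mates at each of these times. The averaged log2 difference was -0.69 ± 0.35 (SE, adjusted p = 0.242), and no time was called (adjusted p of at least 0.554).

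Cux2 (ENSMUSG00000042589, mm9 chromosome 5, 122308396 to 122500111) encodes a homeodomain repressor that female liver expresses far more than male liver and that represses male-biased genes. It ran between 0.295 and 33.7 CPM in KO mice (median 10.00, n = 24) and between 0.426 and 33.9 CPM in WT mice (median 2.57, n = 24). Both genotypes thus spanned nearly the same range, and the medians differed within it. At ZT16 the KO livers had 6.12, 30.1, 0.494 and 26.9 CPM and the WT livers 2.25, 0.480, 1.85 and 1.24 CPM. At ZT4, where the groups did not overlap, the KO livers had 28.8, 20.2, 7.91 and 12.4 CPM and the WT livers 1.42, 5.00, 5.24 and 2.60 CPM. The fitted log2 differences at these times, 3.45 ± 1.26 (SE, adjusted p = 0.0992) and 2.28 ± 1.15 (SE, adjusted p = 0.272), were not called. The averaged log2 difference was 1.15 ± 0.46 (SE, adjusted p = 0.114), and it passed without WT mouse 40 (1.58, adjusted p = 0.0281). Leaving out other single mice, it did not pass (adjusted p up to 0.215).

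Trim24 (ENSMUSG00000029833, mm9 chromosome 6, 37820811 to 37916296) encodes a chromatin-binding co-regulator of nuclear receptors that is female-biased in mouse liver. It averaged 54.2 ± 14.9 CPM in KO livers and 40.7 ± 11.6 CPM in WT livers (SD, n = 24 each). Trim24 was higher in KO by 0.43 ± 0.11 (log2, SE, 1.35-fold, adjusted p = 0.00651), and the sign was positive at all 6 times, from 0.01 at ZT12 to 0.87 at ZT16. At ZT16 single mice had 42.4, 70.4, 38.8 and 66.0 CPM in KO livers and 32.0, 25.6, 27.6 and 33.7 CPM in WT livers, without overlap. The ZT16 difference was called (0.87 ± 0.26 SE, adjusted p = 0.0394). That call ended without any 1 of KO mice 25, 26 and 31 and WT mice 27, 28, 29 and 32 (adjusted p up to 0.136), when body weight was added as a term (0.0604) and with cage as a random block (0.0631). The averaged call held without each mouse in turn (0.36 to 0.48, adjusted p up to 0.0133) and with body weight in the model (adjusted p = 0.0478). In the 22 mice of the mixed cages the averaged log2 difference was 0.49 with cage mates paired (adjusted p = 0.193) and 0.50 unpaired (0.263), not called. KO mice weighed 27.9 ± 2.52 g and WT mice 30.5 ± 2.08 g (SD, n = 24 each), so weight moved with genotype, and its part in the result was not tested further. The WT time course of Trim24 was called without an assumed shape (adjusted p = 0.0485), a call that leaving out single mice ended in 29 of 48 fits. It also ended without the filter on low counts (0.0631) and with body weight in the model (0.0519). Its 24 h wave was not called in KO livers (amplitude 0.20, adjusted p = 0.415) or in WT livers (0.28, adjusted p = 0.108), where it passed without WT mouse 40 (0.35, adjusted p = 0.0469). Leaving out other single mice, the WT wave did not pass (adjusted p up to 0.228).

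**Figure D3:**
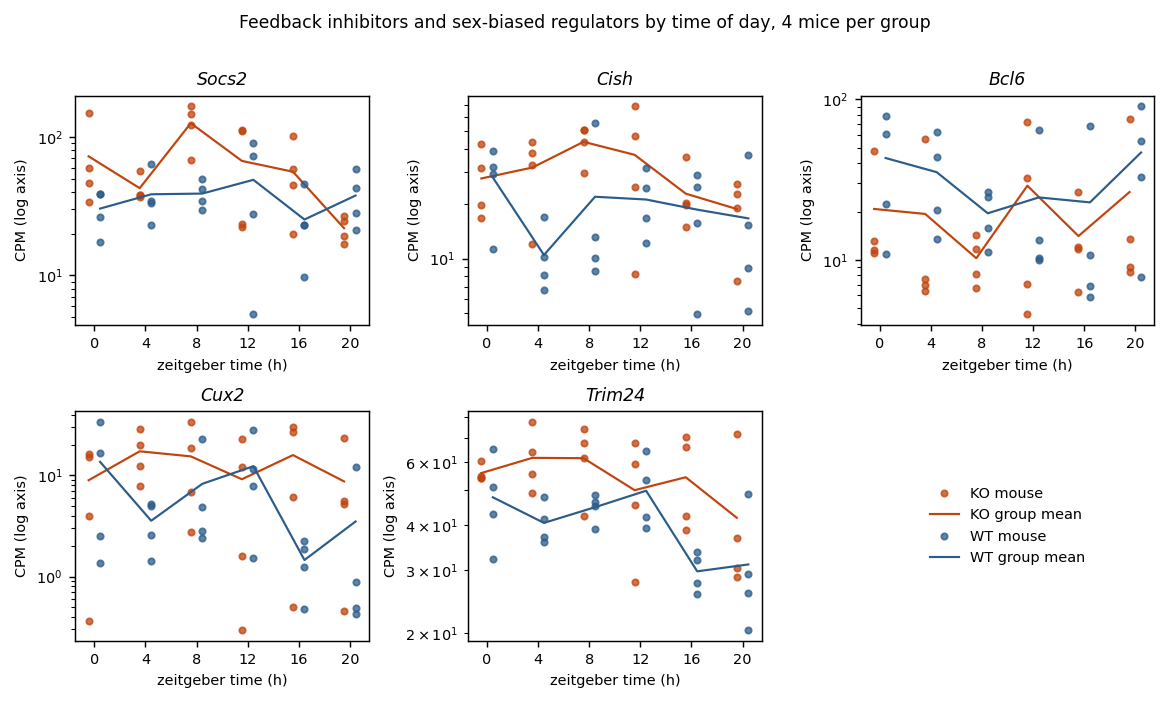
CPM (log axis) of Socs2, Cish, Bcl6, Cux2 and Trim24 against zeitgeber time in hours, with 1 point per mouse (KO orange, left of WT blue) and lines through the arithmetic group means of 4 mice. Mice of 1 group differ up to 77.0-fold in Cux2, and KO points of Trim24 lie above all WT points at ZT4 and ZT16.

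The spread between mice of the same genotype and time separated the 10 genes into steady and variable ones. The within-group SD on the log2 scale, over both genotypes, was 1.95 for Cux2, 1.27 for Bcl6, 0.89 for Socs2 and 0.89 for Cish. The median gene of the 9880 with at least 5 CPM had 0.16, and these 4 genes stood at the 99.9, 99.7, 99.2 and 99.2 percentiles of those genes. The receptor and the IGF genes were steadier, at 0.15 for Ghr (37.1 percentile), 0.17 for Igf1 (55.2 percentile), 0.19 for Stat5b (64.1 percentile) and 0.23 for Igfals (77.2 percentile). Stat5a and Trim24 lay between, at 0.34 (91.4 percentile) and 0.38 (94.0 percentile), still more variable than most of those genes. Within a group, the highest Cux2 mouse exceeded the lowest by a median of 48.4-fold in KO groups and 14.1-fold in WT groups. The same ratio for Ghr was 1.18-fold in KO groups and 1.27-fold in WT groups.

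The SD of Cux2 was 2.21 in KO mice and 1.65 in WT mice, that of Stat5b 0.22 in KO mice and 0.16 in WT mice, and that of Socs2 0.82 in KO mice and 0.96 in WT mice. A Levene-type test on absolute deviations (limma) called the difference in spread for 0 of the 10 genes, against 0.0202% of all genes, which were 3 genes. The smallest adjusted p among the 10 was 0.513, for Stat5b (unadjusted p = 0.092). A difference in spread between genotypes was therefore not shown for any of the 10. At the lowest counts, 9 reads for Cux2 in 1 library, counting error adds to the spread.

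**Figure D4:**
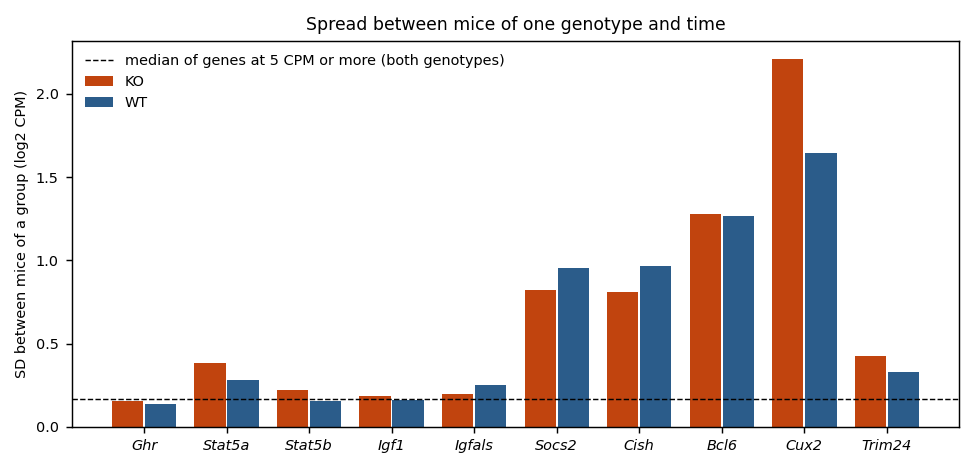
SD between mice of a genotype and time, in log2 CPM, for the 10 genes (KO orange, left, WT blue, right). The dashed line is the median of 0.16 over genes with at least 5 CPM. Cux2, Bcl6, Socs2 and Cish stand far above the line in both genotypes, and Ghr, Igf1 and Stat5b stand near it.

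Mice with more Bcl6 than their group mates tended to have less Cish. Across mice of a genotype, with the mean of each mouse's group subtracted, the 2 genes correlated with r = -0.735 and rho = -0.667 in 24 KO mice and with r = -0.751 and rho = -0.711 in 24 WT mice. Adjusted over the 22 relations computed, permutation p was 0.0546 for r and 0.0495 for rho in KO mice (unadjusted 0.00496 and 0.00675), and 0.00506 and 0.0165 in WT mice (unadjusted 0.00023 and 0.00075). The WT relation passed by both measures, and the KO relation by rho alone. Without the 2 mice farthest in Bcl6, r was -0.620 in KO mice and -0.687 in WT mice. Without KO mouse 20, which had 32.5 CPM of Bcl6 and 68.8 CPM of Cish, the highest Cish value of all, r in KO mice was -0.930 (adjusted p = 0.00022). Leaving out KO mouse 41, 9 or 18 also brought the KO relation under the threshold by r (adjusted p of 0.0188 to 0.0493). Without WT mouse 2, 3 or 8 the KO r stayed at -0.735. There only the adjustment over the 22 relations changed (adjusted permutation p of 0.0364 to 0.0458). In 41 of the 48 fits without 1 mouse the KO relation stayed uncalled by r. Over the 48 fits its r was as weak as -0.652 and its adjusted p reached 0.139. Within the 3 cage sets (ZT4 with ZT8, ZT12 with ZT16, ZT20 with ZT0), r was -0.926, -0.556 and -0.886 in KO mice and -0.351, -0.899 and -0.883 in WT mice. All 6 values were negative.

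Of the other relations, 0 passed by r with all mice. Stat5a and Stat5b gave r = 0.492 (adjusted permutation p = 0.141) and rho = 0.634 (adjusted p = 0.0405) in KO mice, where r passed without mouse 20 (0.718, adjusted p = 0.00836) or mouse 21 (0.574, adjusted p = 0.0125), against r = 0.407 (adjusted p = 0.173) in WT mice. Leaving out other single mice, r of this pair did not pass in KO mice (adjusted p up to 0.311). The counts of this pair can hold shared reads, as given above. Socs2 and Igf1 gave r = 0.324 (adjusted p = 0.285) in KO mice and r = 0.591 (adjusted p = 0.0732) in WT mice. Ghr and Igf1 gave r = 0.534 (adjusted p = 0.141) in KO mice and r = 0.177 (adjusted p = 0.594) in WT mice. Bcl6 and Cux2 gave r = -0.261 (adjusted p = 0.463) in KO mice and r = -0.433 (adjusted p = 0.173) in WT mice. Body weight was set against Igf1, Cux2 and Bcl6 and passed for none of them (adjusted p of at least 0.173 for r and 0.2 for rho). For Igf1 its r was 0.398 in KO mice and 0.387 in WT mice.

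**Figure D5:**
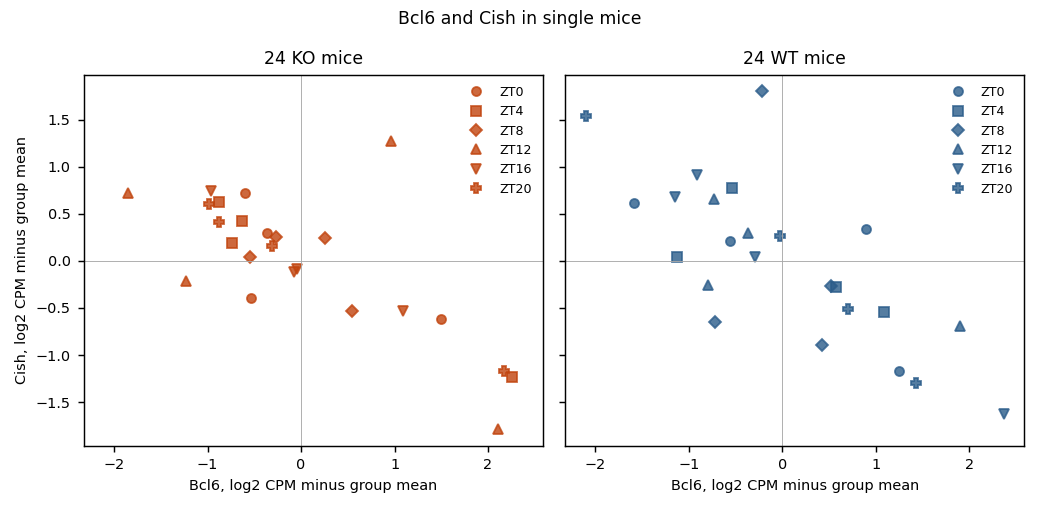
Bcl6 (horizontal) against Cish (vertical), each as log2 CPM minus the mean of the mouse's own group, in 24 KO mice (left) and 24 WT mice (right), with 1 symbol per time. In both panels the points run from upper left to lower right, with r = -0.735 in KO mice and -0.751 in WT mice. The KO point at upper right is mouse 20 of ZT12.

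The genes most like each member across the 48 mice, again after subtracting group means, were found among 12286 genes outside the 10. These correlations are descriptions, since the mice share their library depth and scaling with every gene. Cux2 was most like Prlr (r = 0.835), which encodes the prolactin receptor and is more abundant in female liver, and then like Crls1 (0.774) and the female-biased A1bg (0.767). Trim24 was most like Acot3 (0.762), Acot4 (0.723) and Prlr (0.720), and Cux2 and Trim24 correlated with each other at 0.786. Cish was most like Foxa2 (0.792), a forkhead factor of hepatocytes, then Phlda1 (0.748) and Arid5b (0.730). Ghr was most like Chpt1 (0.802), Ctage5 (0.797) and Pde3b (0.768), and Bcl6 like Atxn1 (0.644), Zbtb7c (0.643) and B3galnt2 (0.642). The first neighbours of the others were Tor3a for Stat5a (0.725), Fem1c for Stat5b (0.703), Dcun1d1 for Igf1 (0.713), Ccdc107 for Igfals (0.721) and 1810032O08Rik for Socs2 (0.738).

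Among 30 further genes of receptor and JAK-STAT signalling, averaged KO minus WT was called higher for 1 and lower for 2. This was 10% of the list, against 8.86% of all genes, with a list median of -0.02. Prlr averaged 470 ± 111 CPM in KO livers and 382 ± 69.8 CPM in WT livers (log2 fold change 0.30 ± 0.08 SE, adjusted p = 0.021). Irs2, an adaptor of the insulin receptor, averaged 9.73 ± 5.82 CPM in KO livers and 15.5 ± 8.85 CPM in WT livers (-0.57 ± 0.18 SE, adjusted p = 0.0427), and the kinase Jak1 differed by -0.08 ± 0.03 (SE, adjusted p = 0.0365). A 24 h rhythm was called for 0 of the 30 in KO livers (0.984% of all genes) and 16 of the 30 in WT livers (53.3%, against 48.1% of all genes), and its difference for 8 (26.7%, against 22.8%), shares near those of all genes. In WT livers Jak2, the kinase bound to the growth hormone receptor, cycled with amplitude 0.27 ± 0.04 (SE, peak at ZT 1.11, adjusted p = 1.91e-06). Tyk2, another kinase of the family, cycled in WT livers with 0.28 ± 0.03 (SE, peak at ZT 2.50, adjusted p = 3.84e-08), and its rhythm differed between genotypes (adjusted p = 0.00103), as did those of Gab1, Stat6 and Stat2.

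Of 17 genes of IGF transport and IGF or insulin receptors, 15 were tested, and 1 was higher and 2 lower in KO on average. This was 20% of those tested, against 8.86% of all genes, with a list median of 0.00. Igfbp2, a binding protein that carries IGFs outside the large serum complex, averaged 179 ± 82.9 CPM in KO livers and 269 ± 79.9 CPM in WT livers (-0.61 ± 0.16 SE, adjusted p = 0.00987). The insulin receptor gene Insr differed by -0.16 ± 0.05 (SE, adjusted p = 0.027) and Igfbp4 by 0.12 ± 0.04 (SE, adjusted p = 0.049). A rhythm was called for 0 of the 15 in KO livers (0.984% of all genes) and for 4 in WT livers (26.7%, against 48.1% of all genes). Its difference was called for 3, Igfbp4, Igfbp5 and Klkb1 (20.0%, against 22.8%). Igfbp4 peaked in WT livers at ZT 10.98 (amplitude 0.45 ± 0.04 SE, adjusted p = 4.23e-10) and Igfbp5 at ZT 14.9 (0.65 ± 0.11 SE, adjusted p = 4.69e-05), against ZT 13.6 for Igf1 and ZT 14.6 for Igfals.

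Of 23 liver transcription factors that act with or after STAT5, averaged KO minus WT was called for the co-repressor gene Ncor1 alone (-0.15 ± 0.05 SE, adjusted p = 0.0388). This was 4.35% of the list, against 8.86% of all genes, with a list median of -0.06. A rhythm was called for 0 of the 23 in KO livers (0.984% of all genes) and 17 in WT livers (73.9%, against 48.1%), and its difference for 10 (43.5%, against 22.8%). Nfil3 had the smallest p of the list for the WT rhythm (amplitude 1.12 ± 0.12 SE, peak at ZT 20.0, adjusted p = 4.65e-09). It also had the smallest p for the difference in rhythm (adjusted p = 1.79e-06). Esr1, the oestrogen receptor, was higher in KO at ZT4 (1.11 ± 0.24 SE, adjusted p = 0.00619) and ZT8 (0.99 ± 0.24 SE, adjusted p = 0.0075) and lower at ZT12 (-0.89 ± 0.24 SE, adjusted p = 0.0119). Over the day Esr1 averaged 54.6 ± 13.3 CPM in KO livers and 50.2 ± 23.6 CPM in WT livers (SD, n = 24 each).

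Genes with sex-biased expression in mouse liver are the usual readout of the hormone's pulse pattern. Of 25 female-biased genes, 13 were higher and 0 lower in KO on average (52.0% called, list median 1.19). Of 25 male-biased genes, 2 were higher and 3 lower (20.0% called, list median -0.16). Over all genes 8.86% were called, with a median of 0.00. Both lists were compiled with results of these data known and do not stand as independent evidence of a direction. Of the members, female-biased Trim24 was higher in KO, while female-biased Cux2 and male-biased Bcl6 did not pass.

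Summed markers of other cell types overlapped widely between genotypes. The 7 measured Kupffer cell and macrophage markers summed to 581 to 1679 CPM in KO livers and 728 to 1434 CPM in WT livers. The 6 lymphocyte markers summed to 3.29 to 19.3 CPM in KO livers and 6.20 to 20.8 CPM in WT livers, and those of endothelial cells to 290 to 449 CPM in KO livers and 308 to 486 CPM in WT livers. None of the markers in the table was at 0 in all libraries. On average over times, the hepatocyte marker Apoa1 was called higher and the endothelial marker Kdr lower in KO, where 8.86% of all genes were called. No marker of the stellate, bile duct, neutrophil or erythroid lists was called. A 24 h rhythm was called in WT livers for 5 of 6 endothelial, 4 of 6 stellate, 3 of 5 bile duct and 2 of 6 lymphocyte markers. It was called for 2 of 5 hepatocyte, 1 of 7 Kupffer cell, 0 of 3 neutrophil and 0 of 3 erythroid markers, against 48.1% of all genes. In KO livers it was called for 0 markers of any list (0.984% of all genes). The difference in rhythm was called for 2 hepatocyte markers and 1 stellate marker (22.8% of all genes), and for 0 of the other lists. Some of these markers thus had a called rhythm in WT livers, as did 48.1% of all genes. Their peak times were not set against those of Stat5a, Stat5b, Igf1 and Igfals. The part of cell composition in the differences and rhythms above was not tested.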

How the data were processed

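Per the labels' protocols, unstranded libraries of poly-A RNA were prepared from 48 livers (13 PCR cycles) and 2 of them shared each sequencing lane. CASAVA (version not given), STAR 2.4.0f1 and mouse build mm9 are named in the submitters' processing notes. The gene models and the counter are not given in the sources used here. The authors deposited read counts, whole numbers for each gene and library. Totals per library lay within 33562272 to 34035644, so close that the libraries may have been brought to a common depth, a step not described, and the number of reads sequenced is unknown. Its column names call the times CT and the labels ZT.

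From these counts, edgeR 4.0.16 (R 4.3.3) kept 14836 genes (filterByExpr, minimum count 10, 99.975% of counts), scaled libraries by TMM (0.898 to 1.14) and fitted quasi-likelihood models on all 48 mice. KO minus WT, the interaction and the time courses came from group means (36 residual degrees of freedom), and the rhythms, which rest on 1 cycle, from 24 h cosine and sine terms in each genotype (42). P-values were adjusted by Benjamini-Hochberg across the genes tested, with calls under 0.05. The spread was tested with limma 3.58.1, and relations with 100000 permutations of mice within their times (scipy 1.17.1, numpy 2.4.6). The prior count for log2 CPM was 2. The average difference is the mean of 6 log2 fold changes and can differ from a ratio of mean CPM. SE were derived from the F statistics, and those of amplitudes are approximate. The fits were tested on simulated data.

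The 3 cage sets held ZT4 with ZT8, ZT12 with ZT16, and ZT20 with ZT0, each with both genotypes, so cage set and time are confounded while genotype is not. Alternatives were other scalings (RLE, total counts), no filter, body weight, housing or cage set as a term, cage as a random block (limma voom), DESeq2 1.42.0, 4 mice left out together, each mouse left out in turn and, added after seeing the data, cage mates of both genotypes alone, paired and unpaired. The 10 genes and all gene lists were chosen with earlier results of these data known. The named genes are the 10, up to 4 called members of each list per test, and the 3 genes most like each of the 10 among those with at least 1 CPM. Labels name separate mice as replicates. Without molecular identifiers, reads may repeat a molecule. Overlapping table entries without strand cannot be told apart in the counts: besides Stat3, these are Gm16176 in Igf1 (mean count 42.5, against 29402 for Igf1), Gm17040 in Cish (22.0, against 838) and Gm15637 in Cux2 (0.0208, against 340).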

Additional observations from a re-analysis of the deposited data

Results flagged for a closer look

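In 120 groups of 4 mice, the gap of 1 mouse to the others was taken as a share of the group's CPM range. Over the 10 genes, this share exceeded Dixon's 95% critical value in 14 groups. That value flags about 1 in 20 groups by chance if values are normally distributed, which CPM need not be. The share over all genes was not counted, so the 14 are not read as an excess. Bcl6 gave 5 of the 14. The mice that stood above their group were KO mouse 44 at ZT0 (47.4 CPM, the others 11.03 to 13.0), KO mouse 7 at ZT4 (56.3 CPM, the others 6.37 to 7.60), KO mouse 34 at ZT20 (75.1 CPM, the others 8.40 to 13.4), WT mouse 23 at ZT12 (64.4 CPM, the others 9.91 to 13.4) and WT mouse 28 at ZT16 (67.8 CPM, the others 5.88 to 10.7).

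For Cux2, WT mouse 11 at ZT8 had 23.0 CPM (the others 2.38 to 4.82) and WT mouse 40 at ZT20 had 12.2 CPM (the others 0.426 to 0.874). For Cish, WT mouse 16 at ZT8 had 55.5 CPM (the others 8.56 to 13.2). For Stat5a, KO mouse 41 at ZT0 had 70.7 CPM (the others 37.5 to 41.1) and WT mouse 8 at ZT4 had 26.7 CPM (the others 45.9 to 48.9). Stat5b was low in WT mouse 13 at ZT8, at 70.4 CPM (the others 78.9 to 79.95). Igf1 was low in KO mouse 25 at ZT16, at 642 CPM (the others 841 to 880.0). Socs2 was high in KO mouse 6 at ZT4, at 57.1 CPM (the others 36.8 to 38.3), and Trim24 in KO mouse 44 at ZT0, at 60.3 CPM (the others 54.3 to 54.7).

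Differences between genotypes in the course over time passed for 4 genes. By the interaction of genotype and time, adjusted p was 0.0233 for Stat5a, 0.00111 for Stat5b, 0.0026 for Igf1 and 0.0066 for Igfals. By the difference in the 24 h wave, adjusted p was 0.0131 for Stat5a, 4.61e-05 for Stat5b, 9.89e-05 for Igf1 and 0.000606 for Igfals (edgeR, all 48 mice).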

How the results depend on the processing

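Mouse numbers tie no mice across groups, but 11 cages held 1 KO and 1 WT mouse of the same time (1 pair each at ZT0, ZT4 and ZT16). A paired analysis of these 22 mice, with cage as a replicate block, and an unpaired fit of the same mice were added after seeing the data. Each gave 0 calls among the 10 genes for the averaged difference, the single times, the interaction and the difference in rhythm, so the calls ended with these fewer mice whether paired or not. At an unadjusted p under 0.05 the averaged difference passed for 3 genes paired and 1 unpaired, and the share of all genes was not counted. Ghr averaged 0.049 paired and 0.047 unpaired, with its sign turned. Lone pairs are assumed to vary like the others. Of 734 values for single genes and relations under the alternatives other than leaving out 1 mouse, 666 kept their direction and side of the threshold, 47 lost a call, 12 gained one and 9 reversed. Cage as a random block was not fitted to the 24 h waves. Every alternative that fitted them to more than these 22 mice called the WT rhythms of Stat5a, Stat5b, Igf1 and Igfals. The same alternatives, cage set in the cosine model included, called the differences of these rhythms between genotypes. A KO rhythm was called for 0 of the 10 genes under any alternative that tested it.

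KO minus WT at single times, 6 calls, gave 2 without the filter on low counts and 2 with cage as a random block (3 to 8 without 1 mouse). The KO time courses, 0 calls, gave 1 (Socs2) without KO mice 20, 21, 43 and 44 and 1 by DESeq2 (0 to 1 without 1 mouse). The averaged difference, 1 call, gave 1 to 3 without 1 mouse. The relations, 1 call by r, gave 3 without the 4 KO mice and 5 with total counts (1 to 5 without 1 mouse), the added ones being Bcl6 with Cish, Stat5a with Stat5b, and Ghr with Igf1 in KO mice and Socs2 with Igf1 in WT mice. Signs turned only for values near 0 that were not called. Averaged differences became 0.0016 for Ghr with body weight, and 0.030 for Stat5a and 0.0078 for Stat5b without the 4 KO mice. Differences in spread became -0.039 for Ghr and -0.0082 for Stat5a without the 4 KO mice, and -5.6e-05 for Ghr with deviations from the median. Without 1 mouse they ranged from -0.164 to 0.103 for Bcl6, -0.0152 to 0.0118 for Ghr, -0.0097 to 0.0224 for Igf1, -0.0847 to 0.0894 for Socs2 and -0.0025 to 0.0862 for Stat5a. Weight with Bcl6 in KO mice became 0.10 without the 4 KO mice. Without 1 mouse, Igf1 with Igfals in KO mice ranged from -0.036 to 0.197 and weight with Cux2 in WT mice from -0.061 to 0.246.

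Counts over all genes moved more. The KO rhythm was called for 146 genes, and for 28 without the filter, 38 with cage set in the model, 455 by DESeq2 and 3 to 473 without 1 mouse. KO time courses gave 135 genes, and 64 with RLE, 14 without the filter, 73 with housing, 1017 by DESeq2 and 1 to 1040 without 1 mouse. The WT rhythm gave 7141, and 3555 with cage set in the model. The averaged difference gave 1314, and 711 with body weight. At ZT0 the count was 249, and 414 with total counts, 161 without the filter, 145 with body weight, 494 by DESeq2, 74 without the 4 KO mice and 64 to 629 without 1 mouse. Without 1 mouse it was 203 to 723 at ZT4, 613 to 1439 at ZT8, 1036 to 2250 at ZT12, 306 to 1042 at ZT16 and 41 to 220 at ZT20, so the shares over all genes are uncertain too. Without the 4 KO mice it was 1008 at ZT4 (563 with them), 836 at ZT12 (1737), 1230 at ZT16 (796) and 318 at ZT20 (156), and DESeq2 gave 327 at ZT20. The difference in spread gave 3, and 7 with total counts, 1 without the 4 KO mice and 3 to 13 without 1 mouse. In the 22 mice of the mixed cages, paired, 91 genes passed for the averaged difference and 458 for the difference in rhythm, against 74 and 364 unpaired. The causes were not tested. At a single time the SE of the log2 difference was 0.55 to 1.26 for Socs2, Cish, Bcl6 and Cux2 and 0.10 to 0.26 for the other 6 genes, so that a given difference in the first 4 was harder to detect.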
